A study of Tachycineta bicolor with 12 samples.

Results

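The insulin, insulin-like growth factor (IGF) and growth hormone genes of the tree swallow (*Tachycineta bicolor*) were followed across 6 tissues. They were found by name, as every segment of the deposited table whose protein name holds insulin-like growth factor, insulin receptor, growth hormone receptor or prolactin receptor, apart from 2 segments for proteins that bind IGF2 mRNA. This gave 17 of the 14908 protein-coding segments, under 16 names, since IGF-binding protein 7 has 2 segments. They are 2 ligands, 8 segments of binding proteins, 4 receptors and 3 insulin receptor substrates. The table holds protein names from the best match in another bird and no gene symbols, so the symbols used here follow those names.

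Brain, ovary, spleen, liver, pectoral muscle and trunk blood were taken from 2 adult females, 1 that was establishing a territory early in the breeding season and 1 that was incubating. RNA from both birds was mixed in equal molar amounts into 1 pool per tissue, so the breeding stages cannot be told apart, and each pool was read on NextSeq and on MiSeq, with longer reads on MiSeq. The platforms read the same pool, and there is no biological replicate and no test between tissues. Intervals cover counting error only, and in these bulk samples fewer cells of a type and less RNA per cell cannot be told apart.

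Insulin and the IGFs bind receptor tyrosine kinases that hand the signal to insulin receptor substrates, and through them to the PI3K and AKT kinases, which steer glucose uptake, protein synthesis and growth. Growth hormone and prolactin bind cytokine receptors that work through the kinase JAK2, and growth hormone acting on the liver is the main driver of circulating IGF1. Most IGF in plasma travels bound to binding proteins, which lengthen its life and gate its access to the receptor.

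Levels are CPM, the NextSeq and MiSeq counts of a tissue summed and scaled to a total of 1e+06. Segment lengths were not used, so a level is compared between tissues for 1 gene, and a sum over a marker list serves to follow that list across tissues. Summed totals ran from 16496224.5 counts in spleen to 42803055.5 in muscle. A single count was worth 0.499 to 0.989 CPM in a MiSeq library, against 0.0245 to 0.0646 CPM in a NextSeq library, so low MiSeq values rest on very few counts. Mitochondrial segments took 59.3% of the counts in muscle and 0.656% in blood. The 50 most abundant segments took 71.6% in muscle, 56.6% in blood, 47.2% in liver, 19.6% in brain, 19.3% in spleen and 12.3% in ovary. Such unequal make-up moves every other gene. With TMM factors, which level out the bulk of genes, the median of all genes shifted on the log2 scale by 1.46 in muscle, 0.82 in blood, 0.82 in liver, -0.91 in brain, -1.04 in spleen and -1.16 in ovary. For each of the 17 segments the highest tissue is therefore given on both scales. Lower places are given in CPM, and many of them change with TMM factors, mostly through a higher place of muscle, liver or blood. The labels matched their markers, with 5 of 6 matched brain markers, 6 of 6 for ovary, 6 of 6 for spleen, 4 of 5 for liver, 4 of 4 for muscle and 5 of 5 for red cells at least 2 times higher in their own tissue than in each other one. These counts are in CPM, where the neurofilament gene NEFL was the brain exception, and a segment named transthyretin, highest in brain, was the liver exception. With TMM factors spleen led 5 of 6, since its marker CD79B was highest in blood. Blood also led NEFL on that scale, and the counts of the other tissues stayed the same.

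The genes spread over the tissues, with counts in brain, ovary and spleen close to the shares of all segments. At a minimum of 1 CPM, 16 of the 17 segments were present in liver (66.7% of all segments), 15 in brain (87.7%), 15 in ovary (88.3%), 14 in spleen (83.4%), 8 in muscle (61.2%) and 7 in blood (57.7%). In CPM the liver count was thus the one furthest above its background, and the muscle and blood counts lay below theirs. IGFBP3, IGFBP5 and IRS2 in muscle and IRS1 and GHR in blood lay just under the minimum, at 0.806 to 0.957 CPM. In liver, IGF2, IGFBP2, IGFBP4, IGFBP5, IGFBP7 segment B and PRLR lay just over it, at 1.02 to 1.99 CPM. Just over it too were IGFBP1, IGFBP3 and IRS2 in spleen, IGFALS and IGFBP7 segment B in blood, and IGFBP5 in ovary, at 1.07 to 1.67 CPM. The counts thus depended on the minimum, that of liver the most. At 2 CPM 10 segments were present in liver, 15 in brain, 14 in ovary, 11 in spleen, 8 in muscle and 5 in blood, and shares of all segments were not counted. With TMM factors 16 were present in liver, 15 in brain, 14 in ovary, 11 in spleen, 11 in muscle and 9 in blood. The shares of all segments were not counted on that scale. Present in every tissue were 5 segments (46.5% of all), namely both IGFBP7 segments, INSR, IGF1R and IRS4. IGFBP4 alone was present in a single tissue, the liver, while 7.83% of all segments were confined to 1 tissue. By highest level, 4 of the 17 belonged to liver (6.23% of all expressed segments), 4 to ovary (32.1%), 4 to brain (24.9%), 3 to spleen (23.7%), 1 to muscle (4.11%) and 1 to blood (8.89%). The share with liver as the highest tissue was thus above its background.

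A tissue was said to lead a gene when its level was at least 1 CPM and at least 2 times that of each other tissue. Of the 17 segments, 7 were led by some tissue, beside 48.1% of all expressed segments. Ovary led IGF2 and IGF1R (14.7% of all), liver led IGFALS and GHR (3.98%), brain led PRLR (14.1%), spleen led IGFBP5 (8.89%) and blood led IRS4 (4.22%). Muscle led none of them (2.25% of all). With TMM factors 11 were led by some tissue (53.6% of all), liver led 5 (7.26%), brain 2 (12.2%) and muscle 1 (7.52%), and ovary, spleen and blood led 1 each (8.31%, 5.11% and 13.2%). IGF2, IGFBP5, IGFALS, GHR, PRLR and IRS4 were led by the same tissue on both scales, whereas IGF1R lost its lead, as it did on MiSeq alone (1.72 times). The tissue specificity index τ is 0 for an even level and rises towards 1 for a single tissue, but the floor used here keeps it lower. The somatostatin gene SST, at 13.0 CPM in brain and at most 0.5 counts elsewhere, had a τ of 0.729. The receptor gene SSTR5, at 2.41 CPM in brain and 0 elsewhere, had 0.213. For the genes followed here, τ was read with this limit. The median τ was 0.524 over the 17 segments and 0.461 over the 14561 expressed segments, and no segment of the group passed 0.8 in CPM, which 5.40% of all did. IGFALS reached 0.848 with TMM factors. Only IGFBP4, near the 1 CPM minimum, lay under 0.3 in CPM (23.7% of all). Levels under 2 CPM were set to 2 for τ, so the highest possible τ falls with the level of a gene. Segments with a low highest level, such as IGFBP3 at 5.02 CPM in ovary, thus could not pass 0.8 whatever their pattern. The medians likewise follow level as well as specificity. IGFBP4 reached 1.13 CPM at most. Its τ of 0 was thus fixed by that floor and does not describe an even level.

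**Figure D1:**
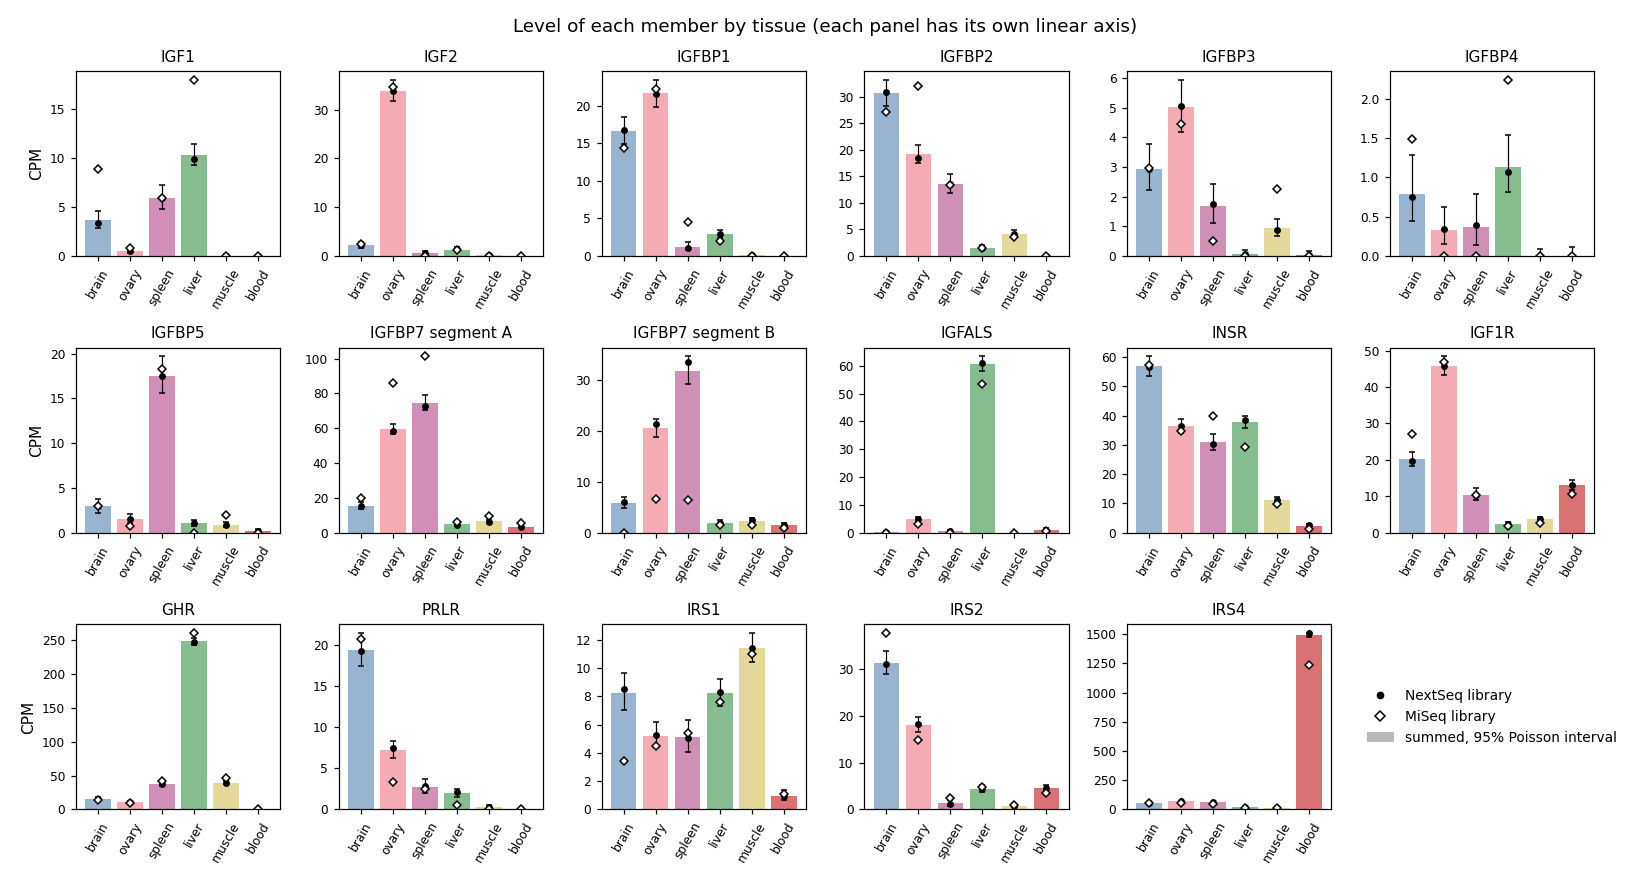
Level of each of the 17 segments in the 6 tissues, in CPM on a linear axis that differs between panels. Bars are the summed platforms with exact 95% Poisson intervals, filled circles the NextSeq library and open diamonds the MiSeq library. IGF1, IGFALS and GHR stood highest in liver, IGF2 in ovary, IGFBP5 in spleen, PRLR in brain and IRS4 in blood.

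**Figure D2:**
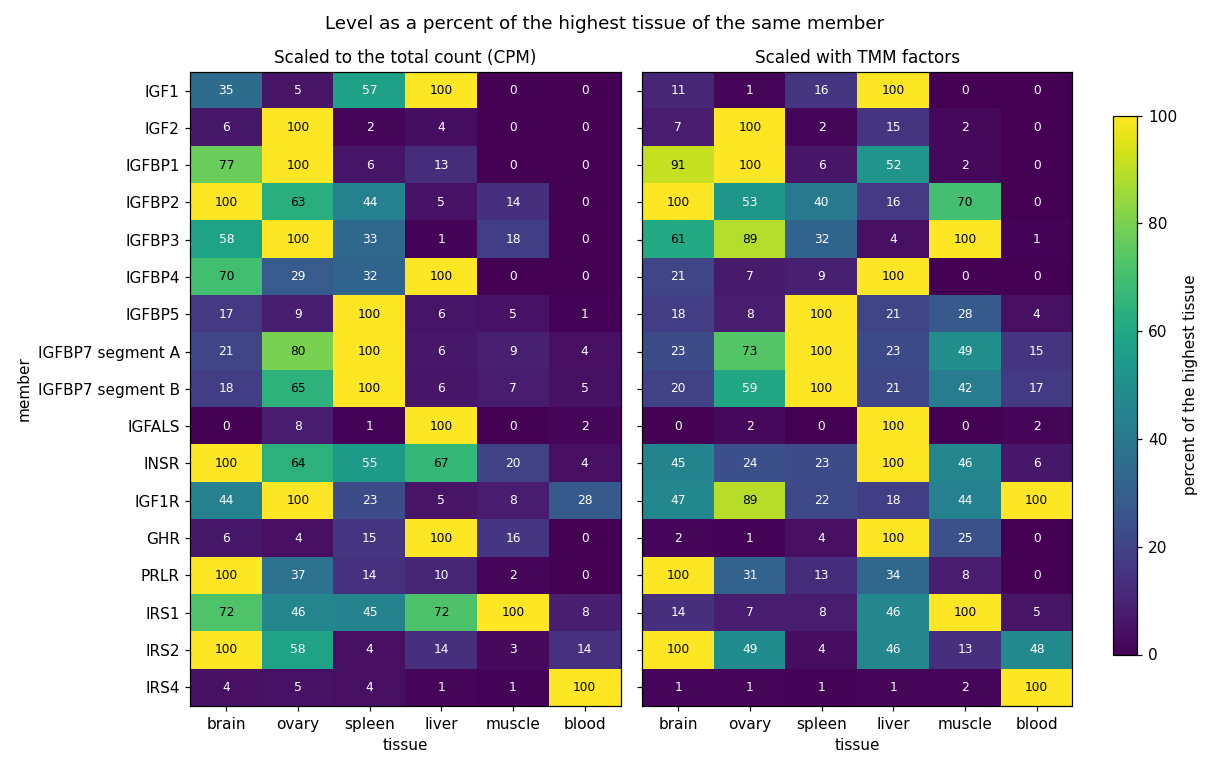
Level of each segment in each tissue (columns) as a percent of that segment's highest tissue, scaled to the total count (left) and with TMM factors (right). The highest tissue was the same in both panels for 14 of the 17 segments (66.7% of all expressed segments) and moved for IGFBP3, INSR and IGF1R, while the muscle, liver and blood columns brightened with TMM factors.

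The IGF ligands divided between liver and ovary. IGF1, the growth factor that liver releases in response to growth hormone, was at 9.90 CPM in liver in the NextSeq library, 5.91 in spleen, 3.35 in brain, 0.523 in ovary, 0.0245 in muscle and 0 in blood. In the MiSeq libraries it was at 18.0 CPM in liver, 8.90 in brain, 5.93 in spleen, 0.743 in ovary and 0 in muscle and blood. Both liver libraries stood above all others, and spleen and brain changed places between the platforms. The summed level in liver was 10.3 CPM (9.28 to 11.4), 1.74 times that in spleen (1.39 to 2.20) and 6.30 times with TMM factors. On MiSeq alone liver was 2.02 times above brain, the next tissue on that platform. In the summed counts spleen, brain and ovary followed with intervals that did not overlap.

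Spleen held 57.3% of the liver's IGF1 level. The liver markers albumin, prothrombin, fibrinogen beta chain, apolipoprotein B and transthyretin were in spleen at a median of 1.13% of what liver had (0.738% to 1.46%). Carry-over of liver RNA into the spleen sample was not tested. In muscle a single count of IGF1 was found over both platforms, and none in blood, where 0 counts allow up to 0.0941 CPM by a limit of 3 counts. The exact interval drawn for 0 counts in the plot of levels, with both sides counted, ends at 0.116 CPM in blood.

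IGF2, the second ligand, which is best known in mammals for fetal growth, was an ovary gene among these tissues. Its NextSeq levels were 33.8 CPM in ovary, 2.12 in brain, 1.30 in liver, 0.581 in spleen, 0.135 in muscle and 0 in blood. Its MiSeq levels were 34.6 CPM in ovary, 2.47 in brain, 1.12 in liver and 0 in spleen, muscle and blood. The platforms differed little, and both ovary libraries stood far above the rest. The summed ovary level of 33.9 CPM (31.7 to 36.2) was 15.9 times that in brain (11.6 to 22.2), and with TMM factors 6.70 times that in liver, the next tissue on that scale. In CPM IGF2 had the highest τ of the 17 segments, just under 0.8, and with TMM factors it fell to 0.736, below IGFALS.

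The ratio of the ligands within a tissue does not depend on the scaling. The IGF1 counts were 0.0158 times the IGF2 counts in ovary (0.00859 to 0.0266), 1.70 times in brain (1.15 to 2.55), 8.01 times in liver (5.88 to 11.2) and 10.8 times in spleen (5.48 to 24.4). Muscle, with 1.0 and 5.5 counts, could not be placed (0.182, 0.00390 to 1.55), and blood had no counts. On MiSeq, with 2.5 and 2.0 counts of IGF2, brain had 3.60 and liver 16.0. In the summed counts ovary stood apart from brain, liver and spleen, and the intervals of liver and spleen overlapped. Since lengths were not used, the ratios order the tissues and do not say which ligand had more transcripts.

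The carriers of IGF in plasma had different homes. IGFALS, the acid labile subunit that joins IGF and IGFBP3 or IGFBP5 in the long-lived plasma complex, was a liver gene. In the NextSeq libraries it was at 61.1 CPM in liver, 4.91 in ovary, 1.10 in blood, 0.646 in spleen, 0.134 in brain and 0 in muscle. MiSeq gave 53.4 CPM in liver, 2.97 in ovary, 0.555 in blood and 0 in the other tissues. The liver libraries stood apart on both platforms. Liver was 12.6 times above ovary (10.5 to 15.2), and 49.6 times with TMM factors. Its level in ovary was 7.92% of the liver's, where the liver markers had a median of 0.139% (0.0975% to 0.194%), whereas its level in spleen, 0.998%, lay within the range of those markers. Carry-over of liver RNA into ovary or spleen was not tested.

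IGFBP3, the usual partner of IGFALS in mammalian plasma, was close to undetected in liver. Its level was 0.0565 CPM there, from 2.0 counts, against 5.02 CPM in ovary (4.20 to 5.96), 2.92 in brain, 1.67 in spleen, 0.923 in muscle and 0.0157 in blood. Ovary exceeded brain 1.72 times (1.25 to 2.39), but with TMM factors muscle came first, 1.13 times above ovary. On both scales liver and blood held the lowest levels.

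IGFBP5, the other partner of IGFALS, was led by spleen. On NextSeq it was at 17.5 CPM in spleen, 2.92 in brain, 1.55 in ovary, 1.07 in liver, 0.821 in muscle and 0.216 in blood. On MiSeq it was at 18.3 CPM in spleen, 2.97 in brain, 2.00 in muscle, 0.743 in ovary and 0 in liver and blood. Both spleen libraries lay well clear of the others. Spleen was 6.01 times above brain (4.51 to 8.12), and 3.56 times above muscle, the next tissue with TMM factors.

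Spleen was also highest for IGFBP7, a binding protein of low IGF affinity secreted by vessel walls and stroma in mammals. The levels of segment A were 74.6 CPM in spleen (70.5 to 78.9), 59.6 in ovary, 15.5 in brain, 6.53 in muscle, 4.67 in liver and 3.12 in blood, and those of segment B were 31.8, 20.5, 5.77, 2.37, 1.88 and 1.47 CPM in the same order. With TMM factors spleen and ovary kept these places, and muscle, at 18.0 in segment A, passed brain, at 8.28. In CPM spleen exceeded ovary 1.25 times in segment A (1.16 to 1.35) and 1.55 times in segment B (1.37 to 1.75). The ratio of A to B counts was 2.12 to 2.90 in the 6 tissues, so the segments moved together across tissues. They parted between platforms, since segment B had 518.0 NextSeq and 6.5 MiSeq counts in spleen and none on MiSeq in brain. On MiSeq alone segment B was 1.04 times higher in ovary than in spleen.

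Summed markers of stromal and vessel cells were also highest in spleen in CPM. Singly, 4 of 5 in each list were, the others being desmin (DES) in muscle and VWF in ovary. The summed level of the 5 matched smooth muscle and fibroblast markers was 1994 CPM in spleen, 519.8 in ovary, 428.0 in muscle, 78.5 in liver, 73.5 in brain and 7.59 in blood. MYH11 made up 1082 CPM of the spleen sum, and the platforms differed on it. For this gene spleen stood 8.70 times above the next tissue on NextSeq and 1.52 times on MiSeq. The 5 endothelial markers summed to 857.6 CPM in spleen, 365.9 in muscle, 297.7 in ovary, 118.5 in brain, 73.4 in liver and 52.2 in blood. With TMM factors muscle had the highest sums, 1177 against 972.8 in spleen for the first list and 1006 against 418.5 for the other. In the first list DES, a gene of muscle fibres too, made up 754.3 of the muscle sum and 85.2 of the spleen sum. ACTA2, MYH11 and LUM of that list stayed highest in spleen, and DCN was highest in muscle. Of the endothelial list only CDH5 stayed highest in spleen, and PECAM1, KDR, TEK and VWF were highest in muscle. IGFBP5 and IGFBP7 stayed highest in spleen. Brain, next after spleen for IGFBP5 in CPM, was next to lowest for the first list. All 5 of each list were present in spleen, and likewise in brain, ovary, liver and muscle. The part of these cells in the binding protein levels was not tested.

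The remaining binding proteins were highest in brain, ovary or liver, in CPM by less than 2 times. IGFBP1, a short-lived binding protein that insulin represses in mammalian liver, was at 21.6 CPM in ovary (19.9 to 23.5), 16.7 in brain, 2.87 in liver, 1.21 in spleen, 0.0818 in muscle and 0 in blood. Ovary exceeded brain 1.30 times (1.13 to 1.49), while DESeq2 size factors, another scaling, placed brain first. Its liver level was 13.3% of the ovary's in CPM, and with TMM factors liver was at 5.06 and ovary at 9.72.

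IGFBP2, a binding protein of brain and other tissues, was at 30.7 CPM in brain (28.3 to 33.2), 19.2 in ovary, 13.5 in spleen, 4.16 in muscle, 1.53 in liver and 0.0314 in blood. Brain stood 1.60 times above ovary (1.42 to 1.80), though on MiSeq ovary had 32.0 CPM and brain 27.2. With TMM factors muscle moved up to the next place, with brain 1.43 times above it. IGFBP4, an inhibitory binding protein, reached 1.13 CPM in liver (0.808 to 1.54) from 40.0 counts, and 0.788 in brain, 0.364 in spleen, 0.325 in ovary and 0 in muscle and blood. The 1.44-fold gap between liver and brain was within counting error in CPM (0.781 to 2.77). With TMM factors it was 4.75-fold, so that liver led IGFBP4, as it also did with DESeq2 factors and in totals without the 50 most abundant segments.

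Among the receptors, INSR, the insulin receptor, was present in every tissue. On NextSeq it was at 56.8 CPM in brain, 38.4 in liver, 36.5 in ovary, 30.4 in spleen, 11.2 in muscle and 2.49 in blood. MiSeq read 57.4 CPM in brain, 40.0 in spleen, 34.9 in ovary, 29.2 in liver, 9.73 in muscle and 1.39 in blood. Brain came first and blood last on both platforms, and the intervals of liver (35.9 to 40.0) and ovary (34.1 to 38.8) overlapped. In CPM brain was 1.5 times above liver (1.38 to 1.63), but with TMM factors liver was the highest, 2.19 times above muscle, with brain just below muscle at 30.3 against 30.5. In totals without the 50 most abundant segments the log2 ratio of brain to the highest other tissue was -0.02. Blood was lowest on both scales.

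IGF1R, the receptor for both IGFs, had another order. It was at 45.7 CPM in ovary, 19.8 in brain, 13.2 in blood, 10.5 in spleen, 3.73 in muscle and 2.46 in liver on NextSeq. On MiSeq it was at 46.8 CPM in ovary, 27.2 in brain, 10.5 in blood, 10.4 in spleen, 2.74 in muscle and 1.69 in liver. The order was the same on both platforms, with ovary first and liver last, and the summed intervals of blood (11.8 to 14.3) and spleen (8.95 to 12.1) overlapped. Ovary stood 2.27 times above brain (2.02 to 2.55) in CPM, but with TMM factors blood was the highest at 23.0, 1.12 times above ovary. Liver kept the lowest level on both scales.

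Set against each other within a tissue, where scaling has no part, the receptors separated liver from blood. The INSR counts were 15.7 times the IGF1R counts in liver (12.6 to 19.7), 3.02 times in muscle (2.52 to 3.64), 2.97 times in spleen (2.49 to 3.55), 2.82 times in brain (2.51 to 3.16), 0.796 times in ovary (0.730 to 0.867) and 0.187 times in blood (0.145 to 0.239). Muscle, spleen and brain could not be separated at this depth, whereas liver lay above them, and ovary and blood below. From blood to liver the ratio rose 84.0-fold in the summed counts, 82.5-fold on NextSeq and 131.7-fold on MiSeq, where the liver had 3.0 counts of IGF1R and the blood 2.5 counts of INSR.

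**Figure D3:**
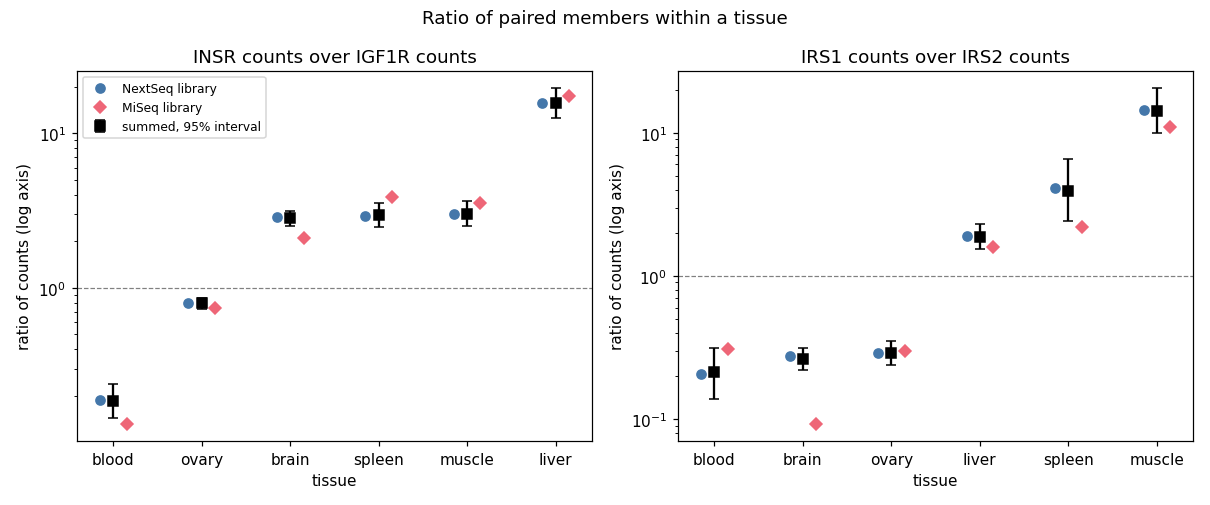
Counts of INSR over counts of IGF1R (left) and of IRS1 over IRS2 (right) within each tissue, on a log axis, with the NextSeq (circles) and MiSeq (diamonds) libraries and the summed counts with 95% intervals (squares). The dashed line marks equal counts. INSR to IGF1R ran from 0.187 in blood to 15.7 in liver, and IRS1 to IRS2 from 0.212 in blood to 14.2 in muscle.

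GHR, the growth hormone receptor, was the receptor that liver led on both scales. On NextSeq its levels were 247.6 CPM in liver, 39.1 in muscle, 37.9 in spleen, 16.0 in brain, 10.6 in ovary and 0.881 in blood. MiSeq gave 260.3 CPM in liver, 46.9 in muscle, 42.0 in spleen, 13.8 in brain, 9.29 in ovary and 0.555 in blood. The order was identical on both platforms, and neither liver library came near any other. Liver stood 6.29 times above muscle (5.97 to 6.63), and 4.03 times with TMM factors. On the log2 scale this ratio was 2.65 in CPM, 1.76 in totals without the 50 most abundant segments and 1.54 in totals without mitochondrial segments. The intervals of muscle (37.6 to 41.4) and spleen (35.3 to 41.3) overlapped in CPM, while with TMM factors muscle was at 108.5 and spleen at 18.6. The spleen held 15.4% of the liver's GHR level, beside the 1.13% median of the liver markers, and carry-over was not tested. Blood, at 27.5 counts, had 0.348% of the liver's level.

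PRLR, the prolactin receptor, was led by brain. On NextSeq, brain had 19.4 CPM, ovary 7.45, spleen 2.81, liver 2.07, muscle 0.306 and blood 0. On MiSeq, brain had 20.8 CPM, ovary 3.34, spleen 2.47, liver 0.562 and muscle and blood 0. Brain was highest on both platforms, and the intervals of spleen and liver overlapped. The brain level was 2.69 times that of ovary (2.25 to 3.21), 6.21 times on MiSeq alone from 21.0 and 4.5 counts, and with TMM factors 2.94 times that of liver, which then took the next place. In blood, 0 counts allow up to 0.0941 CPM.

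The related receptors were thus combined differently. GHR counts were 0.818 times PRLR counts in brain (0.702 to 0.953), 1.46 times in ovary (1.21 to 1.77), 13.7 times in spleen (10.1 to 18.9), 124.5 times in liver (98.5 to 159.7) and 135.1 times in muscle (78.0 to 258.0). NextSeq alone gave 119.6 in liver and 127.6 in muscle, where MiSeq had 1.0 and 0 counts of PRLR. Liver and muscle could not be separated on this ratio, and brain was the lowest of the tissues with PRLR counts.

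The insulin receptor substrates, the docking proteins that the receptors phosphorylate, each had a different highest tissue. IRS1, the main substrate of mammalian muscle, was at 11.4 CPM in muscle, 8.52 in brain, 8.28 in liver, 5.27 in ovary, 5.07 in spleen and 0.947 in blood on NextSeq. MiSeq gave 10.98 CPM in muscle, 7.58 in liver, 5.44 in spleen, 4.46 in ovary, 3.46 in brain and 1.11 in blood. Muscle came first and blood last on both platforms. Muscle was 1.38 times above brain (1.16 to 1.66), and with TMM factors 2.16 times above liver. In totals without mitochondrial segments the log2 ratio of muscle to the highest other tissue rose from 0.47 to 1.58. Brain and liver could not be separated in CPM, nor could ovary and spleen.

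IRS2, a main substrate of mammalian liver and of appetite-controlling neurons, was highest in brain. It was at 31.0 CPM in brain, 18.3 in ovary, 4.57 in blood, 4.36 in liver, 1.23 in spleen and 0.797 in muscle on NextSeq. The MiSeq libraries gave 37.6 CPM in brain, 14.9 in ovary, 4.77 in liver, 3.61 in blood, 2.47 in spleen and 0.998 in muscle. Brain and ovary kept the top places on both platforms, while blood and liver, whose intervals overlapped, changed order. Brain was 1.73 times above ovary (1.53 to 1.95), 2.53 times on MiSeq alone and 2.05 times with TMM factors, which also put muscle at 2.22 above spleen at 0.636.

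The ratio of IRS1 to IRS2 counts put muscle at the far end. It was 14.2 in muscle (10.0 to 20.6), 3.91 in spleen (2.41 to 6.60), 1.88 in liver (1.54 to 2.30), 0.289 in ovary (0.237 to 0.350), 0.264 in brain (0.221 to 0.314) and 0.212 in blood (0.138 to 0.315). Ovary, brain and blood had overlapping intervals, and muscle, spleen and liver did not overlap with one another or with these. The spread from blood to muscle was 66.9-fold in the summed counts and 35.8-fold on MiSeq, where blood had 2.0 counts of IRS1 and muscle 2.0 counts of IRS2. MiSeq alone also gave a lower ratio in brain, 0.0921, from 3.5 counts of IRS1.

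IRS4, which in mammals has a narrow distribution that includes the hypothalamus, was by far highest in blood. On NextSeq, blood had 1508 CPM, ovary 72.3, spleen 60.9, brain 59.4, liver 17.9 and muscle 14.8. On MiSeq, blood had 1234 CPM, brain 55.4, ovary 51.7, spleen 48.4, liver 13.5 and muscle 11.97. Both blood libraries lay far above every other library. Blood was 20.9 times above ovary (interval up to 22.0), and 65.7 times above muscle, the next tissue with TMM factors. The other 5 tissues were close to one another on the TMM scale, between 29.4 in spleen and 40.2 in muscle, whereas in CPM they ranged from 14.6 in muscle to 71.3 in ovary.

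In those 5 tissues IRS4 was at 0.981% to 4.77% of its blood level. The 5 matched red cell markers, 2 hemoglobin chains, HEMGN, RHAG and TSPO2, had medians of 0.188% in brain to 0.631% in spleen of theirs, with HEMGN in ovary, at 10.4%, the exception above all IRS4 shares. The IRS4 share exceeded the median of these markers in each of the 5 tissues. Bird red cells keep their nuclei, and the blood pool was made of whole trunk blood, in which hemoglobin HBB was at 273157 CPM. How much of the IRS4 signal came from red cells as against other blood cells was not tested, nor was carry-over of blood into the other tissues.

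The hormones that drive these receptors were measured in tissues of which none is labelled pituitary or pancreas. Of 6 hormones listed, insulin was not matched by name, and 2 of the other 5 stayed under 1 CPM in every tissue. GH1, growth hormone, peaked at 0.762 CPM in brain, and GCG, glucagon, stayed at or below 0.203 CPM. Prolactin (PRL) was at 6.57 CPM in ovary and 1.12 in brain. GHRH, the releasing hormone for growth hormone, was at 33.3 CPM in ovary, 3.25 in brain and 0 counts elsewhere, and SST, the somatostatin that restrains growth hormone release, was at 13.0 CPM in brain. The 4 matched pituitary markers summed to at most 7.94 CPM, in ovary, a sum that includes PRL.

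Of the 7 upstream receptors, 6 were matched, and 5 were led by a tissue (48.1% of all expressed segments). SSTR1, SSTR3 and SSTR5, receptors for somatostatin, were led by brain at 78.5, 17.7 and 2.41 CPM. SSTR2 was at 15.7 CPM in brain and 8.19 in ovary, and brain led it too with TMM factors. The glucagon receptor GCGR, which opposes insulin in liver, was at 93.5 CPM in liver and 2.52 in spleen, and the ghrelin receptor GHSR reached 2.36 CPM in spleen. GCGR thus shared the liver lead of GHR and IGFALS.

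Of the 6 proteins that cut IGF-binding proteins or insulin, or that restrain such cutting, all were matched and 1 was led by a tissue, beside the same 48.1%. PAPPA, the protease that frees IGF from IGFBP4, was highest in ovary at 20.2 CPM, and brain had 10.9, spleen 1.39, muscle 0.175, liver 0.0283 and blood 0. STC2, an inhibitor of PAPPA, was led by ovary at 11.2 CPM, a lead it lost with TMM factors. HTRA1, a serine protease that can cut IGFBPs, was at 332.1 CPM in brain and 242.1 in ovary, and 0.172 in blood. IDE, the insulin-degrading enzyme, was broad, from 45.9 CPM in blood to 178.1 in muscle, and muscle led it with TMM factors. IGF2R, which in mammals removes IGF2 from the cell surface and also carries lysosomal enzymes, was at 517.0 CPM in ovary, 385.1 in blood, 304.9 in spleen, 203.5 in brain, 68.1 in muscle and 60.6 in liver. With TMM factors blood led IGF2R, so its highest tissue depends on the scale.

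Of 25 genes of the relay below the insulin and IGF receptors, 23 were matched. All 23 were present in brain, ovary and spleen (87.7%, 88.3% and 83.4% of all segments), 22 in liver (66.7%), 22 in muscle (61.2%) and 20 in blood (57.7%). In CPM, 3 were led by blood (4.22% of all expressed segments), 3 by spleen (8.89%), 2 by liver (3.98%) and 2 by brain (14.1%). The blood genes were PIK3CA, the catalytic subunit of PI3K, at 634.9 CPM and 11.3 times the next tissue, FOXO3, a transcription factor that AKT inhibits, at 378.2 CPM and 15.9 times, and TSC1, a brake on mTOR, at 677.2 CPM and 3.03 times. With TMM factors PDPK1, RICTOR and TSC2 joined them, which makes 6 of 23 (13.2% of all).

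Other relay genes, among them AKT1 and GRB10, were at their lowest in blood on both scales. AKT1 was at 3.20 CPM in blood and 12.6 to 184.5 elsewhere. With TMM factors liver led AKT1, at 193.6 against 90.0 in spleen, and led 3 of the 23 genes (7.26% of all). GRB10, an adaptor that restrains the insulin receptor, was at 0.251 CPM in blood and 6.71 to 43.4 elsewhere. GRB14, a related adaptor, had 0 counts in blood and 2.5 in muscle, too few to place these tissues in order. Liver led GRB14, at 115.5 CPM, and RPS6KB1, the S6 kinase of ribosomal growth control, at 310.6 CPM. Brain led PIK3R3, a regulatory subunit of PI3K, at 215.4 CPM, and kept it with TMM factors, under which spleen led none.

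Of the 11 relay genes of the growth hormone and prolactin receptors, 10 were matched. Spleen led 3 (8.89% of all expressed segments) and blood 2 (4.22%). JAK2, the kinase of GHR and PRLR that also serves the erythropoietin receptor, was at 778.3 CPM in blood and 132.5 in spleen. CISH, a feedback inhibitor of this pathway, was at 89.1 CPM in blood and 13.6 in spleen. In the same blood pool GHR was at 0.862 CPM and PRLR had no count. Spleen led PTPN6, a phosphatase of blood cell signalling, at 730.8 CPM, and SOCS1, a feedback inhibitor of cytokine receptors, at 26.9 CPM. With TMM factors blood led 3, SOCS2 being the addition (13.2%), and spleen 2 (5.11%), PTPN6 and SOCS1.

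**Figure D4:**
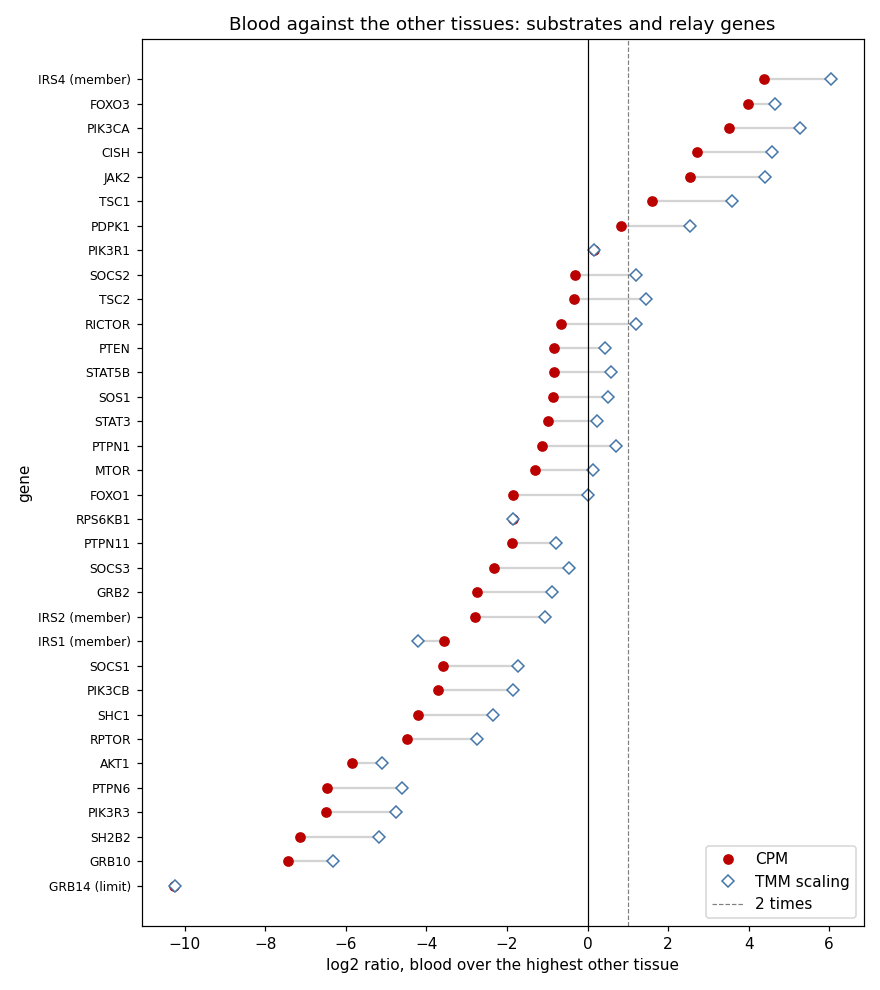
Level in blood over the highest other tissue, on the log2 scale, for the 3 substrates and 31 of the 33 matched relay genes, in CPM (filled circles) and with TMM factors (open diamonds). GRB14 had 0 counts in blood and is drawn at the limit of 3 counts, the solid line marks equal levels and the dashed line 2 times. IRS4, FOXO3, PIK3CA, CISH, JAK2 and TSC1 lay beyond the dashed line on both scales, and AKT1, GRB10 and GRB14 among the lowest.

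Genes with the most similar profiles were sought for 6 of the genes, by Pearson correlation of log2(CPM + 1) over the 6 tissues among the 12370 segments that reached 10 CPM in at least 1 tissue. The points share their libraries and their scaling, and with so few tissues many segments come close to 1, so the values are descriptions. IGF1 was nearest to the cholesterol-esterifying enzyme phosphatidylcholine-sterol acyltransferase (r = 0.995), prospero homeobox protein 1 (0.986) and the receptor Kit (0.975). IGF2 was nearest to 3 segments of ovary, shugoshin-like 2, leucine-rich repeat-containing protein 31 and a protein like centrosome-associated protein 350 (each 0.994).

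The receptors had other neighbours. GHR had ethanolamine-phosphate phospho-lyase (0.983) and tetraspanin-12 (0.977) among its nearest segments, and INSR to the lipid enzyme 1-acyl-sn-glycerol-3-phosphate acyltransferase gamma (0.994) and to NEDD4 family-interacting protein 2 and the ubiquitin ligase MIB2 (each 0.993). IGF1R was nearest to TBC1 domain family member 13 (0.997), serine/threonine-protein kinase H1 (0.996) and ubiquitin carboxyl-terminal hydrolase 21 (0.995). PRLR was nearest to 2 segments of kinase D-interacting substrate of 220 kDa (0.996 and 0.992) and to CSC1-like protein 2 (0.993).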

How the data were processed

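The authors trimmed the reads with Trimmomatic 0.36. Per the paper's methods they mapped them with BWA-MEM to the coding part of the swallow assembly they had built, whereas the submitters' notes name STAR 2.5.2a. The deposited values are taken to be expected counts, in steps of 0.5 and not normalized. In 8 of the 12 columns, numbers of 1000 and more carry separators, which were removed. No library or segment was left out.

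Counts of both platforms were summed per tissue and divided by their total (CPM). Intervals are exact Poisson for levels and exact binomial for ratios (95%, counting error only). Genes at 1 CPM were called present. τ used the natural log with levels under 2 CPM set to 2. TMM factors came from edgeR 4.0.16 and size factors from DESeq2 1.42.0. No test was run, because each tissue is 1 pool. Every member found by name is given, together with the list genes that are highest or led by a tissue and the 3 segments with the closest profile to the ligands and receptors. Some genes that these rules name are not reported here. Genes, lists and rules were chosen with earlier results of these data known. A list gene was matched by protein name, and of several segments with that name only the one with the most counts was used. This holds for PIK3CA, TSC2, SSTR5 and STC2, each with 2 segments, among others, and their other segments are not given. Python 3.11.15 and R 4.3.3 were used, and the procedure was tested on simulated counts.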

Additional observations from a re-analysis of the deposited data

How the results depend on the processing

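IGF2, IGFBP5, IGFALS, GHR and IRS4 kept the same leading tissue in every alternative that could have changed it. These were each platform alone, their mean, TMM and DESeq2 factors, the totals without some segments and the 4-fold rule. PRLR kept its lead in all of these but the 4-fold rule. The minimums of CPM and of 10 counts, the 1.5-fold rule and the summing of segments of a name could not have changed these leads. Each platform alone gave 0 to 1 confined segments, 1 to 2 led by brain, 1 to 2 by ovary, a median τ of 0.525 on both, and folds of 82.5 to 131.7 for INSR to IGF1R and 35.8 to 69.3 for IRS1 to IRS2. Their mean gave 0 confined, 2 led by brain, 1 by ovary and a median τ of 0.525. TMM factors gave 2 led by brain, 1 by ovary, 5 by liver, 1 by muscle, 11 by any tissue and a median τ of 0.483, and DESeq2 size factors 1 by ovary, 5 by liver, 1 by muscle and 0.464. Both reversed IGF1R, whose log2 ratio of ovary to the highest other tissue became -0.17 and -0.53. Totals without mitochondrial segments gave 1 led by muscle and a τ of 0.498, and totals without the 50 most abundant segments 1 by ovary, 4 by liver, 1 by muscle and 0.496. A total without 2 hemoglobin segments, added after seeing the data, gave 1 by ovary, since IGF1R lost its lead, and a median τ of 0.544. Minimums of 0.5, 2 and 5 CPM gave 0, 0 and 4 confined segments. The minimum of 2 left 10 present in liver, and that of 5 left 6 in liver, 5 in muscle and 2 in blood. A 1.5-fold rule gave 4 led by brain, 2 by spleen and 13 by any tissue, and a 4-fold rule 0 by brain and 1 by ovary. Apart from the leads with TMM factors, shares of all segments were not counted for these alternatives. Their counts therefore show how the calls moved and do not set the group against a background. The median τ was 0.643 with a floor of 1 CPM and 0.553 on log2(CPM + 1). The cause of these changes was not tested. No paired analysis was possible because each tissue is 1 pool and the 2 libraries differ in platform. The limits are the single pool per tissue, MiSeq levels that often rest on fewer than 10 counts, names taken from other birds, and levels that cannot be compared between genes without lengths.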

Other observations

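The 2 mRNA-binding segments that the name rule left out were both highest in ovary in CPM. IGF2BP2 was at 73.0 CPM in ovary, 47.0 in spleen, 17.2 in liver, 16.3 in brain, 1.23 in muscle and 0.329 in blood. With TMM factors ovary was only 1.08 times above liver, the next tissue, and with DESeq2 factors liver was the highest. IGF2BP3 was at 57.9 CPM in ovary and 22.8 in spleen, while brain had 5.21, blood 0.502, liver 0.353 and muscle 0.0701. These proteins carry and protect messages that include IGF2.

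The platforms read a few segments unequally in all tissues together. Over the 12655 segments with at least 20 MiSeq counts the NextSeq to MiSeq ratio of pooled CPM had a median of 0.982, and its central 95% ran from 0.518 to 1.34. IGFBP7 segment B lay outside that range at 3.33, and IGFBP7 segment A at 0.664 and IGF1 at 0.571 lay in its lower part.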
